A study of Canis lupus familiaris with 36 samples.

Results

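The combination of Ibrutinib and AS-605240 (Ibr + AS) was followed over incubation time by setting the cells harvested at 72 h against those harvested at 24 h, within the treatment. The libraries were chosen by their labels alone, 3 at each time, which makes 6 of the 36 libraries of the series. CLBL-1 is a single cell line from a dog with diffuse large B-cell lymphoma, so the replicates are cultures of 1 line at passages p121, p126 and p128. Passage was a term of the fit, so p-values rest on the spread between cultures left after average passage differences, estimated over all 12 groups. All 6 cultures received 1 µM Ibrutinib and 5 µM AS-605240 in dimethyl sulfoxide (DMSO). The other groups of the series received DMSO alone, 1 µM Ibrutinib (Ibr) or 5 µM AS-605240 (AS) for 24, 48 or 72 h at the same passages. Poly-A RNA was sequenced, and levels are given as CPM in the order of passages p121, p126 and p128. CPM here means reads scaled to the library total after that total was adjusted by a normalization factor (TMM).

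Ibrutinib is a covalent inhibitor of Bruton tyrosine kinase (BTK), which carries the signal of the B-cell receptor (BCR) to phospholipase C gamma, calcium, NFAT and NF-kB. AS-605240 inhibits the gamma isoform of phosphoinositide 3-kinase (PI3K), whose lipid product recruits AKT and BTK to the membrane. In B cells these pathways feed the transcription of MYC, of ribosome and metabolic genes and of survival genes, and B cells present antigen to T cells on major histocompatibility complex (MHC) class II molecules.

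The 36 libraries held 9941919 to 14703839 reads on genes, and the 6 libraries compared here held 9941919 to 13408790. Within these 6, the 24 h library of passage p121 and the 72 h libraries of passages p121 and p128 lay, in log2 CPM over all genes tested, no nearer to their own group than to another (mean distances 87.3, 82.8 and 85.1 against 87.0, 81.7 and 81.7). For passage p126, the 24 h library belonged to the first of the 2 sequencing runs inferred from sample-sheet numbers and the 72 h library to the second, whereas both times of passage p121 were in the first run and both times of passage p128 in the second. The study's sample sheet lists a single RNA isolation date for each passage, so the longer storage of the 24 h lysates and the shorter incubation cannot be told apart. It also dates the 72 h harvest of passage p128 later than a course begun with its 24 h cells would give, and the reason is not stated in the sources used here.

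After 72 h of Ibr + AS far more genes were lower than higher by an estimate of over 2-fold, relative to 24 h. Of 18670 genes tested, 283 were differentially expressed genes (DEGs), which here means an adjusted p of at most 0.05 in edgeR's quasi-likelihood test together with an absolute log2 fold change (log2 FC) above 1. This was 1.52% of the genes tested. At 72 h, 247 DEGs were lower (1.32%) and 36 were higher (0.193%). Of the lower DEGs 176 averaged at least 1 CPM over the 6 libraries and 36 at least 20 CPM, and of the higher DEGs 25 and 5. With a log2 FC of 1 as the limit of the test itself (glmTreat), 17 lower and 1 higher remained. Most of the changes are thus over 2-fold as estimates only. The median log2 FC was -1.56 over the lower DEGs and 1.37 over the higher DEGs, against 0.00 over all genes tested. At 72 h, 36 of the lower DEGs had no more than 3 reads in any library, and with these held at 3 reads the median was -1.40. Without passage p128 the count of higher DEGs was 74, and without the 72 h library of passage p128 or the 24 h library of passage p121 the DEGs numbered 338 and 270. Without the 72 h library of passage p121 they numbered 167, of which 132 were lower. In passage p126 the 2 times were sequenced in different runs, and without it 251 DEGs were called.

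Gene symbols could be paired with 1068 identifiers. These are the ones in the rows held here of the study's tables, mostly the lowest-numbered identifiers whatever their response, so they are neither the whole nor a random sample of the genome. Among these 1068, 11 were DEGs (1.03%), and all 11 were lower at 72 h. Tested against a log2 FC of 1 rather than 0 (glmTreat), A4GALT alone of the 11 was called, so the other falls are over 2-fold as estimates only. With edgeR no gene with a symbol was a higher DEG (0%), although 76 of them were higher at an adjusted p of at most 0.05 with a smaller log2 FC. In the plot of CPM against incubation time, their levels under Ibr + AS can be read beside those under DMSO.

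A4GALT, the glycosyltransferase that makes the Gb3 glycolipid (CD77) of germinal centre B cells, was measured at 2.46, 4.74 and 8.87 CPM at 24 h and 1.02, 0.695 and 1.21 CPM at 72 h. Its groups did not overlap, and each passage was lower at 72 h (log2 FC -2.42, SE 0.295, adjusted p = 8.34e-09). A common direction in the 3 passages was a condition for naming DEGs with at least 1 CPM, so it adds no support. Groups were apart for 91.9% of the lower DEGs and 83.3% of the higher DEGs, against 15.7% of all genes tested. PLXNB2, a receptor for semaphorins, stood at 26, 33.7 and 45.1 CPM at 24 h and 11.9, 13 and 12.9 CPM at 72 h. All 3 libraries at 72 h lay close together and below the lowest library at 24 h (log2 FC -1.46, SE 0.148, adjusted p = 1.41e-10). TMEM71, which encodes a transmembrane protein, gave 102, 105 and 72.3 CPM at 24 h and 19.7, 35 and 36.1 CPM at 72 h, with groups apart (log2 FC -1.62, SE 0.163, adjusted p = 6.61e-08). Its fall was most marked in passage p121.

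MTSS1 encodes a protein that binds curved membrane and actin, and its level was 61.3, 53.1 and 38.8 CPM at 24 h and 13, 25.3 and 22.2 CPM at 72 h. The groups were apart (log2 FC -1.35, SE 0.156, adjusted p = 4.86e-08), and the call was not made from the 6 libraries alone (adjusted p = 0.0651). MDGA1, a membrane-anchored protein of the immunoglobulin superfamily, was at 27.1, 22.4 and 19 CPM at 24 h and 8.29, 7.25 and 9.5 CPM at 72 h, again without overlap (log2 FC -1.44, SE 0.159, adjusted p = 6.07e-11). IL17REL, a relative of the interleukin 17 receptors, was low throughout at 3.31, 2.87 and 3.28 CPM at 24 h and 0.782, 0.596 and 1.21 CPM at 72 h (log2 FC -1.88, SE 0.317, adjusted p = 3.81e-06).

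**Figure D1:**
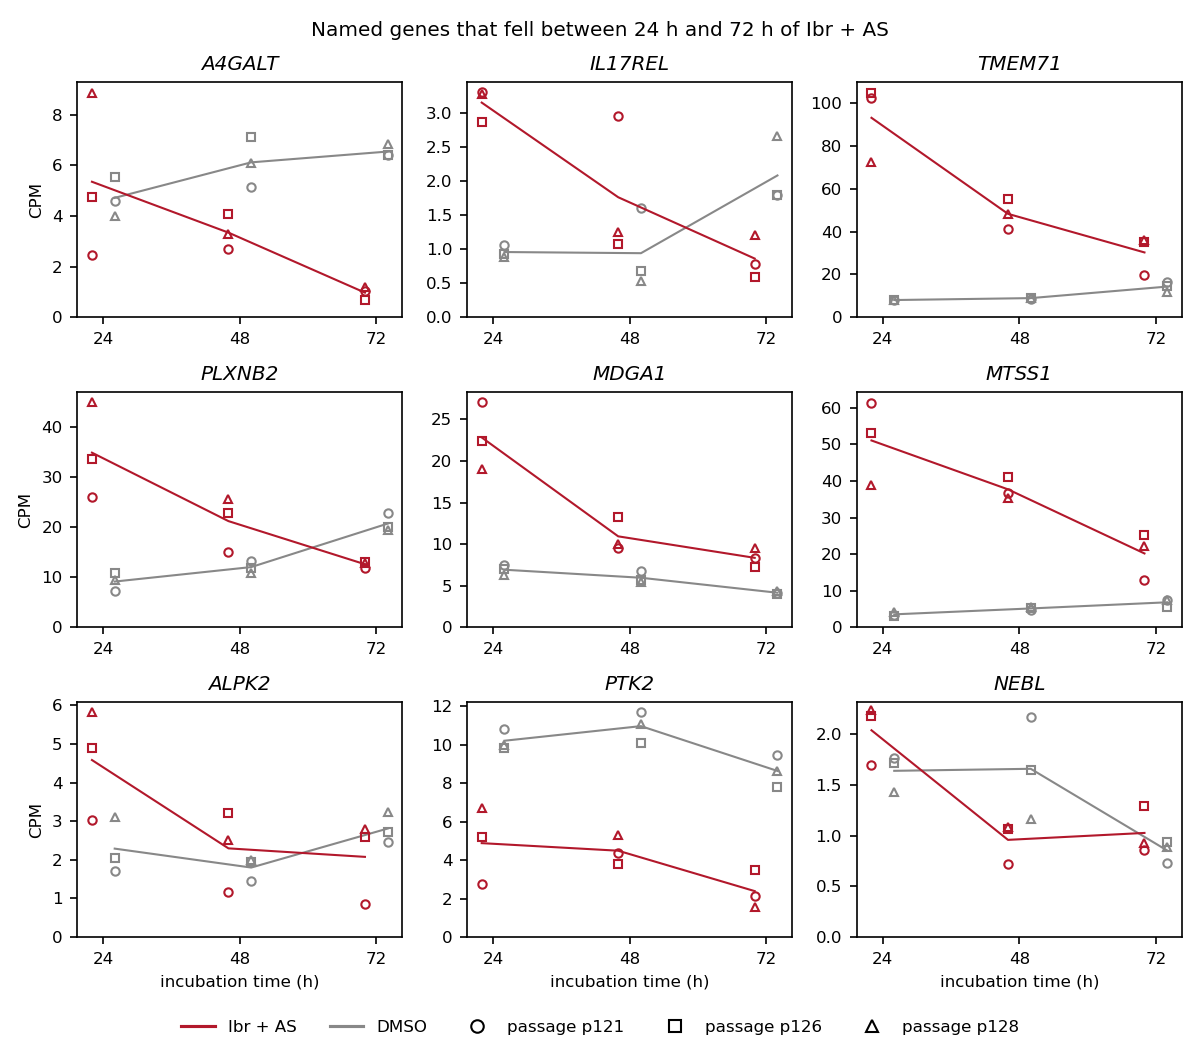
CPM (vertical axes, from 0) against incubation time in h for the 9 named genes with at least 1 CPM that fell by over 2-fold between 24 h and 72 h of Ibr + AS; red is Ibr + AS, grey is DMSO, symbols are the 3 passages, set 2 h left or right of the true time for clarity, and lines join group means. TMEM71 falls from 72.3 CPM or more to 36.1 CPM or less, and PLXNB2 falls under Ibr + AS while it rises under DMSO.

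ALPK2, an alpha-kinase, was at 3.03, 4.89 and 5.83 CPM at 24 h and 0.86, 2.58 and 2.79 CPM at 72 h (log2 FC -1.18, SE 0.247, adjusted p = 0.000258). The passages differed in level, but each of the 3 fell and the groups did not overlap. PTK2 encodes focal adhesion kinase, which links integrins to the actin cytoskeleton, and it stood at 2.74, 5.2 and 6.71 CPM at 24 h and 2.11, 3.48 and 1.58 CPM at 72 h. Its groups overlapped, since passage p121 at 24 h lay below passage p126 at 72 h, and the fall (log2 FC -1.05, SE 0.223, adjusted p = 0.000362) was not called without passage p128 (log2 FC -0.55, adjusted p = 0.204). NEBL, an actin-binding protein of the nebulin family, was near the detection limit at 1.7, 2.18 and 2.24 CPM at 24 h and 0.86, 1.29 and 0.932 CPM at 72 h (log2 FC -1.01, SE 0.317, adjusted p = 0.0237), and leaving out any passage removed the call (adjusted p from 0.0585 to 0.135).

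The remaining 2 named DEGs averaged less than 1 CPM. WNT7B, a secreted WNT ligand, had 47 reads over the 3 libraries at 24 h and 6 at 72 h, a ratio of 0.142 (95% interval 0.0498 to 0.334, exact binomial, counting error only). IL5, a cytokine gene, was at 1.23, 1.17 and 0.879 CPM at 24 h and 0.313, 0.199 and 0.652 CPM at 72 h (log2 FC -1.47, SE 0.474, adjusted p = 0.0308). Neither was called without passage p121 (adjusted p = 0.157 for WNT7B and 0.267 for IL5) or without its 72 h library alone (0.0558 and 0.165), and IL5 was not called without passage p126 either (0.286).

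Most DEGs could be reported by identifier only. ENSCAFG00000018146 fell the most among those with at least 1 CPM, from 8.32, 6.91 and 1.44 CPM to 0.0782, 0 and 0.466 CPM (log2 FC -4.79, SE 0.625, adjusted p = 6.49e-06). ENSCAFG00000024573 fell from 62.6, 38.5 and 45.1 CPM to 2.5, 3.57 and 11.1 CPM (log2 FC -3.18, SE 0.415, adjusted p = 1.38e-05). In both, every library at 72 h lay below every library at 24 h. The 72 h levels of ENSCAFG00000018146 were near the detection limit, since 3 reads are about 0.236, 0.302 and 0.263 CPM in these libraries. Its log2 FC ran from -7.16 to -3.94 over 17 alternative settings, so the size of its fall is uncertain. It passed the adjusted p limit in 16 of the 17 settings, and ENSCAFG00000024573 did so in 15. Of the 36 genes that rose, ENSCAFG00000014130 went from 1.89, 1.63 and 2.32 CPM to 4.14, 7.45 and 11.8 CPM (log2 FC 1.96, SE 0.245, adjusted p = 2.97e-09), and ENSCAFG00000010192 from 0.662, 1.09 and 1.52 CPM to 5.71, 3.18 and 1.86 CPM (log2 FC 1.71, SE 0.305, adjusted p = 3.1e-05). The last gene was not called without passage p121 (log2 FC 0.93, adjusted p = 0.0615).

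The levels at 48 h are given as a description, since the DEGs were chosen for a distance between 24 h and 72 h. For 238 of the 247 lower DEGs the mean log2 CPM at 48 h lay between those at 24 h and 72 h, as it did for 27 of the 36 higher DEGs and for 45.5% of all genes tested. The lower DEGs had covered a median of 41.7% of their change by 48 h and the higher DEGs 66.7%. PLXNB2 was at 15.1, 22.9 and 25.7 CPM at 48 h, TMEM71 at 41.4, 55.3 and 48.1 CPM and MDGA1 at 9.5, 13.3 and 10 CPM. MDGA1 had thus reached most of its fall by then, whereas MTSS1, at 36.8, 41 and 35.3 CPM, had not. Tested step by step, 26 genes were DEGs between 24 h and 48 h (0.139%) and 36 between 48 h and 72 h (0.193%). These counts moved with single libraries, to 75 and 73 without the 24 h library of passage p121 and to 30 and 99 without the 72 h library of passage p128. Without the 72 h library of passage p121, 1 DEG was called between 48 h and 72 h.

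Smaller changes were described at an adjusted p of at most 0.05 with no limit on log2 FC, a rule added after the data were seen. It gave 1804 genes (9.66% of those tested), 809 higher at 72 h (4.33%) and 995 lower (5.33%). Scaled by library size alone, these counts were 1257 and 771, and without the 72 h library of passage p121 they were 350 and 531. Of the genes named below as having risen or fallen, VARS1, PA2G4, UTP20, POP1, RPS6, EIF3E, ATP5F1B, CS, ME2, CYC1, DGKA, CDK2, LMNB1, TIMELESS, SREBF2, PLIN2, IQGAP1, SEC11C, TNFAIP3, IGF2R, HMGA1, HIVEP2, APOBEC3Z3, ST13, HSF2, DLA-DQA1 and DLA88 were not called without that library. Among the 1068 genes with a symbol 14.5% passed it, 7.12% higher and 7.4% lower, which is the background for the gene lists that follow. In this section "rose" and "fell" refer to that rule. Each list holds only members among those 1068 genes and so is part of its pathway, and the calls lean on the spread shared by all 35 libraries of the fit.

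Of 8 antigen presentation genes, 6 were lower at 72 h, 1 was higher and 1 did not pass, with a median log2 FC of -0.41. DLA-DRA, the alpha chain of the main canine MHC class II molecule, was at 3965, 4208 and 4050.4 CPM at 24 h and 2079, 2654 and 3189.6 CPM at 72 h. The 24 h libraries were nearly level, and every 72 h library was lower, passage p121 most of all (log2 FC -0.63, SE 0.108, adjusted p = 1.28e-05). DLA-DOA, a class II chain that modulates peptide loading, was at 82.4, 87.7 and 97.2 CPM at 24 h and 47.1, 55.9 and 71.1 CPM at 72 h (log2 FC -0.62, SE 0.106, adjusted p = 9.49e-06). DLA-DQA1 (-0.48, adjusted p = 0.00432), DLA-DMA (-0.41, adjusted p = 0.000718), the class I gene DLA88 (-0.40, adjusted p = 0.0035) and the peptide transporter TAP1 (-0.36, adjusted p = 0.00263) fell too. CANX, a chaperone of glycoprotein folding also used by many other proteins, rose (0.42, adjusted p = 0.000563). With the 9 Ibr + AS libraries fitted on their own, or without the 72 h library of passage p121, 4 members fell, and with the 6 libraries 2 did.

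Transcription factors of B cells and interferon response genes also included more members that fell. Of 12 transcription factors, 5 fell and 1 rose. MYC, the growth-promoting factor, was at 426, 325 and 324 CPM at 24 h and 256, 274 and 279 CPM at 72 h. The groups did not overlap (log2 FC -0.41, SE 0.0951, adjusted p = 0.00137), but the fall was not called without the 24 h library of passage p121, its highest value (log2 FC -0.26, adjusted p = 0.0687). IRF5, a factor of Toll-like receptor signalling, was at 316, 283 and 283 CPM at 24 h and 171, 193 and 221 CPM at 72 h (log2 FC -0.59, SE 0.0891, adjusted p = 2.05e-07). IRF1 (-0.39, adjusted p = 0.00288), HIVEP2 (-0.77, adjusted p = 0.0204) and the corepressor TLE1 (-0.30, adjusted p = 0.0299) were the other members that fell. HMGA1, an architectural chromatin protein, rose from 426, 385 and 409 CPM to 614, 460.3 and 539 CPM (log2 FC 0.40, SE 0.0936, adjusted p = 0.00109). Of 10 interferon response genes 4 fell, namely IRF1 and IRF5, which are in both lists, with APOL6 (-0.56, adjusted p = 0.000209) and APOBEC3Z3 (-0.35, adjusted p = 0.0287), and with edgeR no member rose at an unadjusted p under 0.05 either. With the 9 or the 6 Ibr + AS libraries fitted alone, 2 transcription factors and 2 interferon response genes fell.

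**Figure D2:**
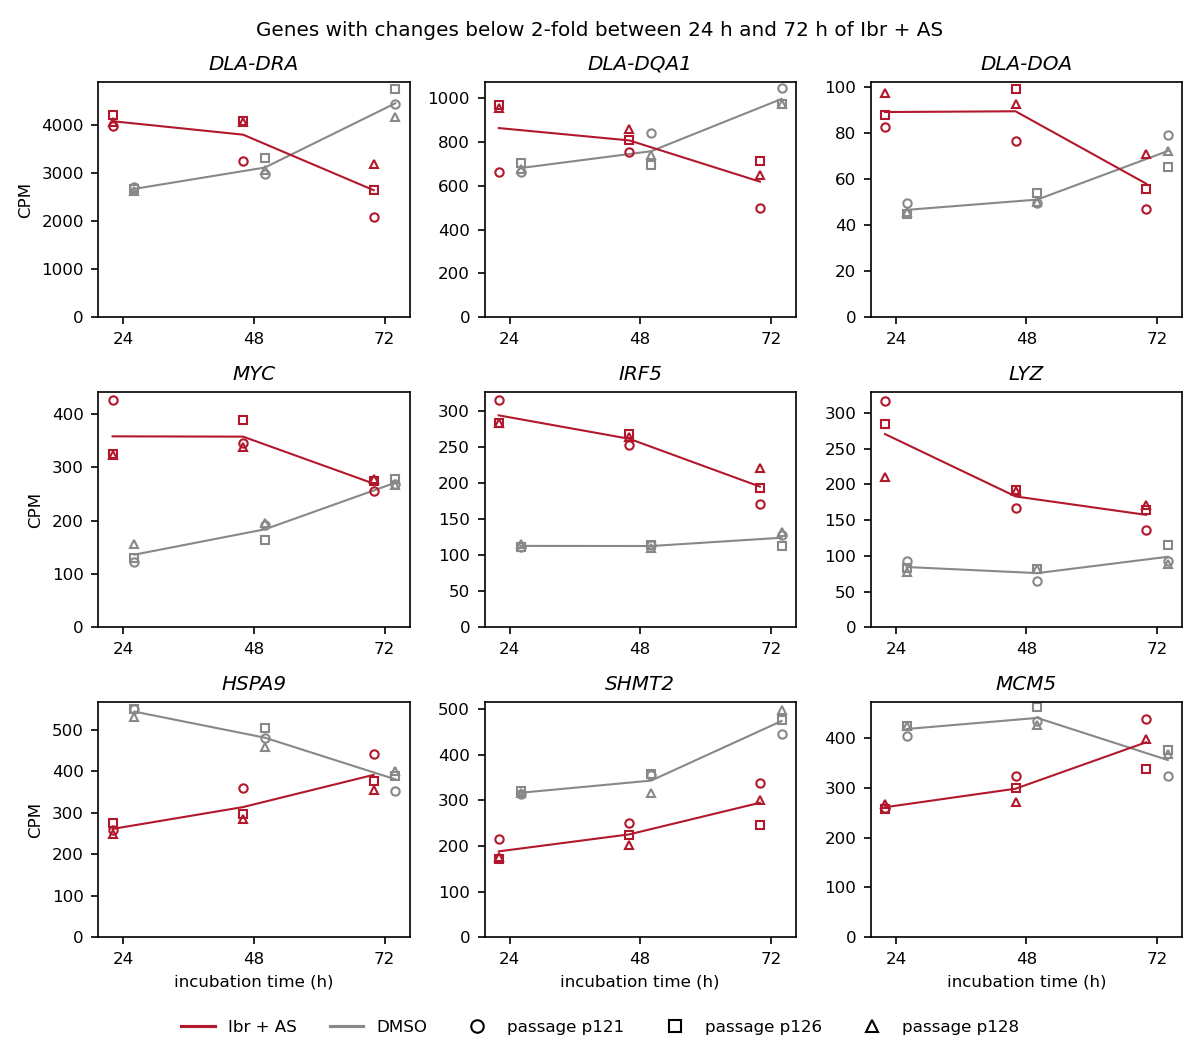
CPM (vertical axes, from 0) against incubation time in h for 9 genes whose change between 24 h and 72 h of Ibr + AS was below 2-fold; colours, symbols and lines are as for the genes that fell by over 2-fold. DLA-DRA, MYC and IRF5 fall under Ibr + AS, and HSPA9, SHMT2 and MCM5 rise.

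Of 9 genes of chaperones and their regulation 6 were higher at 72 h and 3 did not pass, and the list median was 0.41. HSPA9, the mitochondrial HSP70, was at 257, 275 and 249 CPM at 24 h and 441, 377 and 355 CPM at 72 h. Every passage rose and the groups were apart (log2 FC 0.58, SE 0.0898, adjusted p = 3.84e-07). The chaperonin subunits TCP1 (0.43, adjusted p = 0.000236) and CCT2 (0.40, adjusted p = 0.000726), the HSP110 protein HSPA4 (0.41, adjusted p = 0.000349), the cochaperone ST13 (0.32, adjusted p = 0.0112) and the heat shock factor HSF2 (0.56, adjusted p = 0.0213) were the others. In the 9 Ibr + AS libraries alone, or without the 72 h library of passage p121, 4 members rose, and in the 6 libraries 1 did.

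Genes of serine and one-carbon metabolism and of tRNA charging followed, with 5 of 12 members higher and a median of 0.30. SHMT2, the mitochondrial serine hydroxymethyltransferase, was at 216, 172 and 177 CPM at 24 h and 338, 245 and 301 CPM at 72 h, with the groups apart (log2 FC 0.65, SE 0.0967, adjusted p = 2.95e-07). The methionyl-, valyl- and asparaginyl-tRNA synthetases MARS1 (0.56, SE 0.0923), VARS1 (0.40, SE 0.094) and NARS1 (0.37, SE 0.0914) rose, as did the tRNA export factor XPOT (0.47, SE 0.0898). Apart from these genes of tRNA charging and export, SHMT2 alone rose. PSAT1, MTHFD1L, PYCR3, GCAT and GLDC did not pass the adjusted p limit. ATF4, the transcription factor of amino acid stress, gave a log2 FC of 0.03, adjusted p = 0.993.

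Of 14 ribosome biogenesis genes 5 rose, with a list median of 0.23. The largest log2 FCs were those of PWP1 (0.53, adjusted p = 1.99e-05) and RBM28 (0.48, adjusted p = 0.000452), both of which act in the nucleolus. PA2G4, UTP20 and POP1 had log2 FCs of 0.35, SE 0.0908, 0.33, SE 0.102 and 0.27, SE 0.0939. With the 6 Ibr + AS libraries alone, 3 members of the one-carbon and tRNA charging list and 1 of the ribosome biogenesis list rose. The latter count was 3 without passage p126, 3 without passage p128, 3 with sequencing run as a term and 2 without the 72 h library of passage p121. Ribosomal proteins and translation factors went the other way, with 5 of 16 members lower, 1 higher and a median of -0.20. RPS6 was at 2447, 1989.7 and 2055 CPM at 24 h and 1672, 1613 and 1990.0 CPM at 72 h, with overlapping groups (log2 FC -0.30, SE 0.0973, adjusted p = 0.0294), and the translation initiation subunit EIF3E gave -0.37, adjusted p = 0.0294. The number of lower members depended on the passage left out, at 0 without passage p121, 2 without passage p126, 9 without passage p128 and 0 without the 72 h library of passage p121.

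Mitochondrial genes of respiration and the citric acid cycle rose in 6 of 16 cases, with a median of 0.24. CYC1, cytochrome c1 of complex III, was at 224, 160.3 and 179.5 CPM at 24 h and 273, 210.0 and 266 CPM at 72 h, and the groups overlapped (log2 FC 0.41, SE 0.0967, adjusted p = 0.00157). ATP5F1B (0.35, adjusted p = 0.00535) of the ATP synthase, the citrate synthase CS (0.31, adjusted p = 0.00919), the malic enzyme ME2 (0.31, adjusted p = 0.0114) and the outer membrane channel VDAC1 (0.40, adjusted p = 0.000682) were among the other members that rose. NDUFA6 of complex I gave -0.44, adjusted p = 0.0627. Without passage p128 the count was 2 members higher and 2 lower, without the 72 h library of passage p121 it was 2 higher, and with the 6 libraries alone it was 1 higher.

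In the lists of the inhibited pathways the share of members that changed was near that of all genes with a symbol. These lists lack the targets BTK and PIK3CG, and also SYK, LYN, CD79A, CD79B, PLCG2 and the AKT genes. They therefore do not describe the core of either pathway. Of 18 BCR-proximal genes 2 fell, TNFRSF13C (log2 FC -0.59, SE 0.0972, adjusted p = 4.17e-06), which is the receptor for the survival factor BAFF, and the diacylglycerol kinase DGKA (-0.30, adjusted p = 0.012), and the list median was 0.00. With edgeR 2 members were higher at an unadjusted p under 0.05, and DESeq2 called 1 of the 18 higher. The number that fell was 1 without passage p126, p128 or the 72 h library of passage p121, 3 without passage p121 and 4 without the 24 h library of passage p121. INPP5D, the lipid phosphatase SHIP1, was at 626, 799.8 and 887 CPM at 24 h and 867, 783 and 830.1 CPM at 72 h, with overlapping groups (log2 FC 0.10, SE 0.0966, adjusted p = 0.686). Of 16 genes of PI3K, mTOR and FOXO 2 fell, RPS6 and CITED2 (-0.45, adjusted p = 0.00307). PIK3R1, the regulatory subunit of PI3K, was at 62, 71.3 and 64.2 CPM at 24 h and 69.7, 68.6 and 61.8 CPM at 72 h (log2 FC 0.01, SE 0.0939, adjusted p = 1).

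Among survival genes, the apoptosis inhibitor BCL2 was at 15.7, 17.5 and 20.5 CPM at 24 h and 17.2, 12.1 and 11.6 CPM at 72 h. Its groups overlapped, passage p121 did not fall (log2 FC -0.39, SE 0.129, adjusted p = 0.0332), and the call was lost without passage p126 (adjusted p = 0.214), passage p128 (0.667) or the 72 h library of passage p128 alone (0.249). MYB, a factor of progenitor growth, was at 18.6, 27 and 24.7 CPM at 24 h and 24.9, 20.5 and 16.8 CPM at 72 h (log2 FC -0.20, SE 0.12, adjusted p = 0.395), and without passage p121 it was called lower (log2 FC -0.49, adjusted p = 0.0104). DSE, dermatan sulfate epimerase, gave a log2 FC of -0.04, adjusted p = 0.904, and NHSL1 one of -0.04, adjusted p = 1.

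Cell cycle genes were mixed, with 4 of 18 higher and 1 lower and a median of 0.02. CENPM of the centromere (0.53, adjusted p = 0.000317), CDC23 of the anaphase-promoting complex (0.37, adjusted p = 0.00444), CDK2 (0.32, adjusted p = 0.0323) and LMNB1 (0.30, adjusted p = 0.0157) rose, and the CDK4/6 inhibitor CDKN2B fell (-0.48, adjusted p = 0.0367). Without passage p121 no member rose, without passage p128 2 did, and without the 72 h library of passage p121 2 did. Among 16 replication and repair genes, MCM5 of the replicative helicase went from 259.5, 257 and 267 CPM to 439, 339 and 398 CPM (log2 FC 0.59, SE 0.0927, adjusted p = 6.97e-07), TIMELESS rose (0.33, adjusted p = 0.00788) and the translesion polymerase POLI fell (-0.56, adjusted p = 0.00117).

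In sterol and lipid metabolism 3 of 19 members rose and 3 fell. SQLE (0.45, adjusted p = 0.000576), ACAT2 (0.46, adjusted p = 0.000192) and SREBF2 (0.27, adjusted p = 0.0339) of cholesterol synthesis rose, and the phospholipase PLA2G6 (-0.70, adjusted p = 2.63e-06), the acyltransferase AGPAT4 (-0.71, adjusted p = 0.000202) and the lipid droplet protein PLIN2 (-0.29, adjusted p = 0.0217) fell. Of 13 genes of oxidative stress, heme and iron 3 rose, namely TXNRD1 (0.50, adjusted p = 5.03e-06), AKR1B1 (0.55, adjusted p = 0.000556) and SOD2 (0.39, adjusted p = 0.00243), while HMOX1 gave 0.15, adjusted p = 0.889. The actin scaffold and adhesion list held 4 of the DEGs described above, PLXNB2, MTSS1, PTK2 and NEBL, and 2 of its 22 members rose, the membrane linker EZR (0.40, adjusted p = 0.000692) and the scaffold IQGAP1 (0.28, adjusted p = 0.0417).

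Of 18 genes of the endoplasmic reticulum 3 rose, CANX, CRELD2 (0.40, adjusted p = 0.0128) and SEC31A (0.33, adjusted p = 0.0178), and SEC11C fell (-0.35, adjusted p = 0.0328). Of 15 genes of NF-kB signalling SOD2 and TNFAIP3 (0.38, adjusted p = 0.0165) rose. In the lysosome list of 14, IGF2R rose (0.29, adjusted p = 0.0499) and 1 member fell. IGF2R was not called without passage p121 (adjusted p = 0.395) or p126 (0.636), without the passage term (0.0896) or with RLE factors (0.0518), among other settings. Of 8 immediate early genes MYC fell, of 7 hypoxia-responsive genes CITED2 and PLIN2 fell, and of 11 genes of cell death and p53 BCL2 fell.

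**Figure D3:**
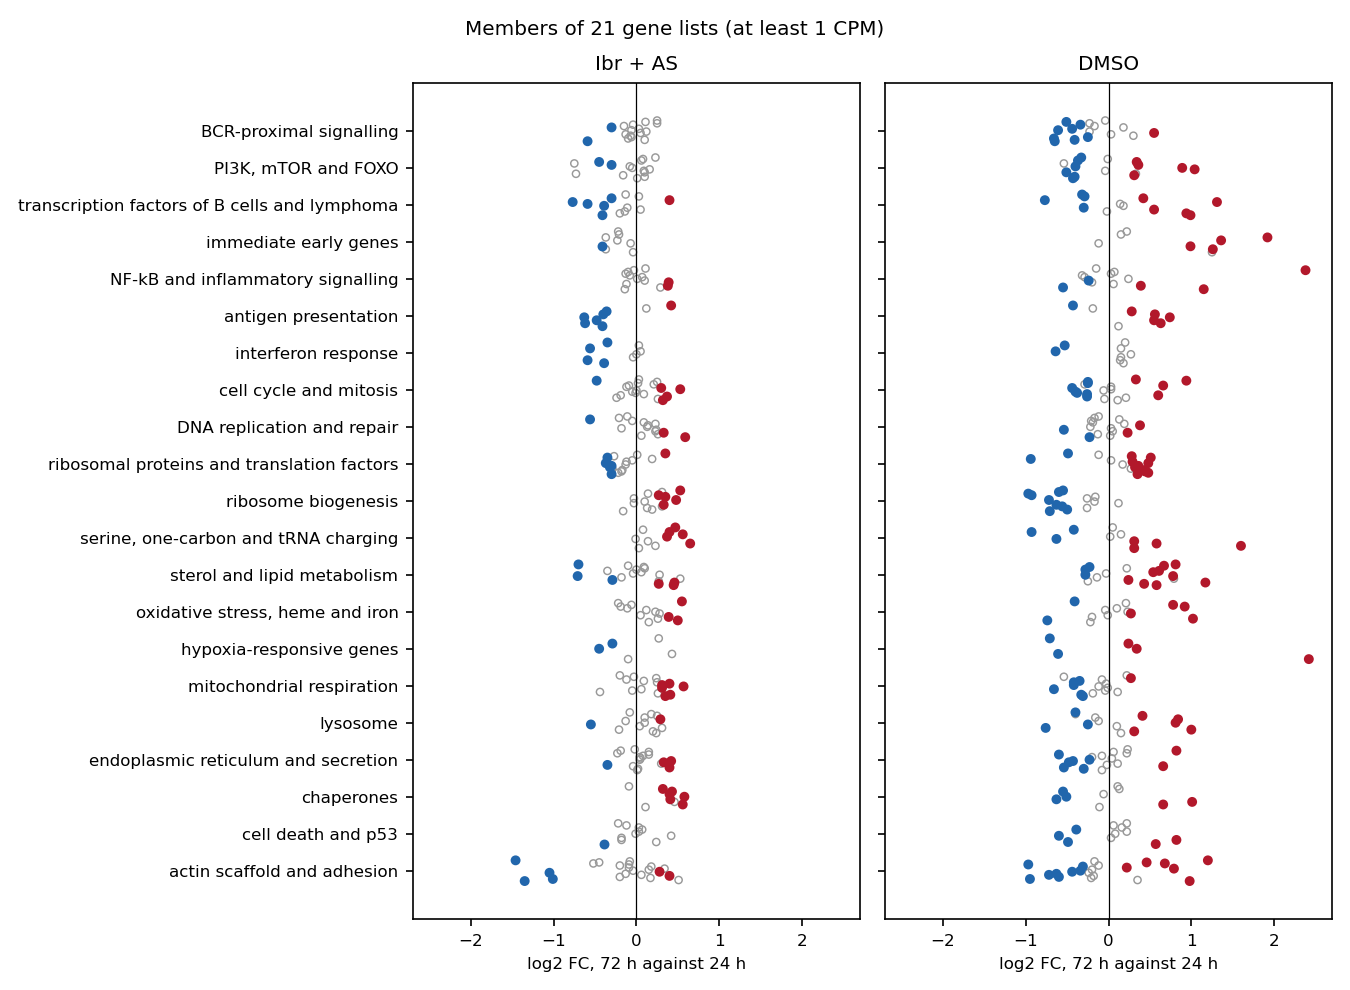
Log2 FC at 72 h against 24 h (horizontal axes) for members of 21 gene lists with at least 1 CPM, in Ibr + AS (left) and DMSO (right); each point is a gene, filled red or blue where higher or lower at an adjusted p of at most 0.05 and open otherwise. Under Ibr + AS 6 of 8 antigen presentation genes lie left of 0 and 8 of 9 chaperones right of it, with medians of -0.41 and 0.41.

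The same interval in DMSO served as the comparison for the passage of time in culture. In the study's separate assay at 72 h, fewer viable cells were counted under Ibr + AS than in DMSO. The study also proposes culture without fresh medium as a possible reason for the changes in DMSO. Cell density and use of medium may therefore have differed between the courses, and their part was not tested. In DMSO 1076 genes were DEGs between 24 h and 72 h (5.76%), with 827 higher (4.43%) and 249 lower (1.33%). At any log2 FC 26.7% of genes passed the adjusted p limit in DMSO. The 2 courses share no library. Over the 10837 genes with at least 1 CPM, the log2 FCs of Ibr + AS and DMSO had a Pearson r of -0.281 across genes, which are not independent replicates, and 61.1% of genes differed in sign. Of the 827 genes higher in DMSO at 72 h, 144 were lower and 35 were higher in Ibr + AS at an adjusted p of at most 0.05 (median log2 FC -0.28). Of the 249 genes lower in DMSO, 24 were higher and 21 lower (median 0.06), and the shares over all genes tested were the 4.33% higher and 5.33% lower given above. The 247 lower DEGs of Ibr + AS had a median log2 FC of 0.68 in DMSO, -0.55 in Ibr and -0.02 in AS, against medians between -0.03 and 0.02 over all genes tested. With Ibr the r was 0.423 and with AS 0.0935, again without shared libraries. These correlations rest on libraries of the same passages and are given as descriptions.

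**Figure D4:**
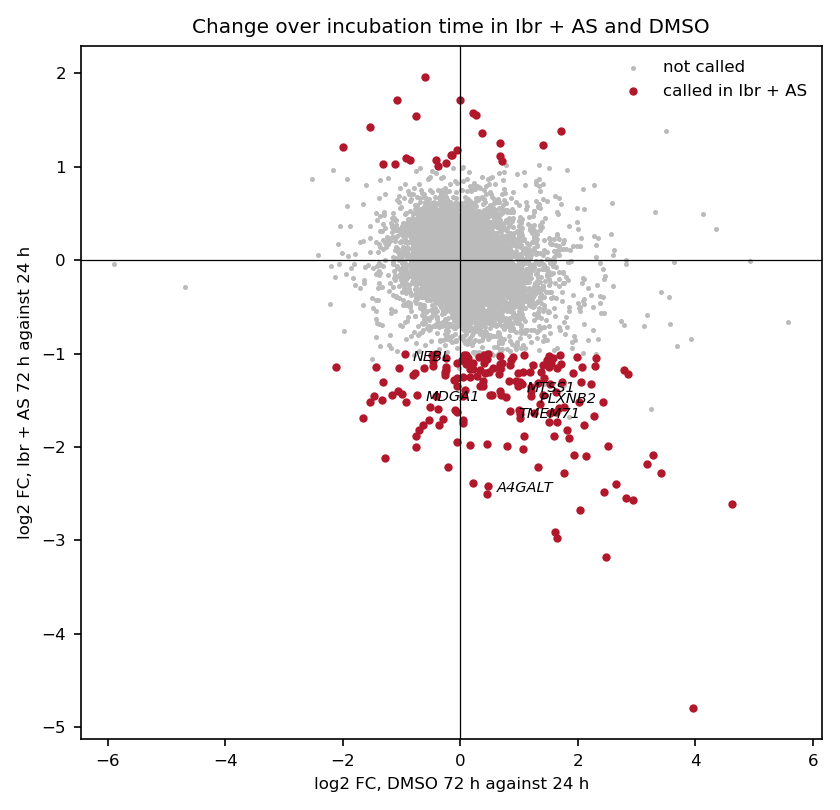
Log2 FC at 72 h against 24 h in DMSO (horizontal axis) and in Ibr + AS (vertical axis) for the 10837 genes with at least 1 CPM; red points are DEGs of Ibr + AS and grey points are all other genes. Most red points below 0 lie right of the vertical line, that is, they were lower with time in Ibr + AS and higher in DMSO.

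The difference between the courses was tested as a contrast of the same fit. The change from 24 h to 72 h differed between Ibr + AS and DMSO for 1466 genes (7.85%), 400 with the higher (2.14%) and 1066 with the lower (5.71%) change in Ibr + AS. PLXNB2, which fell under Ibr + AS, was in DMSO at 7.15, 10.8 and 9.45 CPM at 24 h and 22.8, 20 and 19.4 CPM at 72 h (log2 FC 1.20, adjusted p = 9.3e-09), a difference of -2.66, SE 0.214, adjusted p = 8.79e-15. By 72 h its levels under Ibr + AS were below those under DMSO, the reverse of 24 h. For A4GALT the difference was -2.89, SE 0.365, adjusted p = 3.3e-09, for IL17REL -2.98, SE 0.449, adjusted p = 4.11e-08, for TMEM71 -2.46, SE 0.256, adjusted p = 1.96e-08 and for MTSS1 -2.33, SE 0.269, adjusted p = 7.3e-09. For MDGA1 it was smaller, -0.70, SE 0.251, adjusted p = 0.029, and MDGA1 fell in DMSO as well (-0.74, adjusted p = 0.00151), and for NEBL, which also fell in DMSO, it was -0.07, SE 0.477, adjusted p = 1.

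Other large differences came mostly or in part from movement in DMSO. P4HA2, a collagen prolyl hydroxylase, was at 2.36, 1.32 and 2.64 CPM at 24 h and 1.72, 2.38 and 1.86 CPM at 72 h under Ibr + AS and in DMSO at 2.83, 1.72 and 1.78 CPM at 24 h and 12.3, 13.1 and 8.71 CPM at 72 h. Only the DMSO libraries were apart, and the difference was -2.51, SE 0.365, adjusted p = 5.92e-08. MYO1A, an unconventional myosin, showed the same arrangement (Ibr + AS log2 FC 0.06, adjusted p = 1; DMSO 2.60, adjusted p = 6.29e-16). In the other direction, TRAM2 rose under Ibr + AS from 15.5, 29.3 and 29.2 CPM to 31.7, 41.7 and 39.8 CPM (log2 FC 0.62, SE 0.127, adjusted p = 0.000395) and fell in DMSO (-1.05, adjusted p = 1.03e-09). SAPCD1, SRSF6, PLXNA1 and CNKSR3 fell in DMSO and gave adjusted p-values between 0.24 and 0.702 under Ibr + AS. Such p-values do not show that these genes were unchanged there. Over 17 alternative settings the log2 FC under Ibr + AS was 0.55 to 0.94 for SAPCD1 and -0.11 to 0.90 for PLXNA1.

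Several list members had opposite calls in the courses. MYC was in DMSO at 123, 129.6 and 156 CPM at 24 h and 269, 278 and 267 CPM at 72 h (log2 FC 0.99, adjusted p = 5.38e-15), and the difference was -1.40, SE 0.136, adjusted p = 9.47e-15. DLA-DRA rose in DMSO (0.74, adjusted p = 5.82e-08; difference -1.37), whereas HSPA9 (-0.51, adjusted p = 1.16e-06; difference 1.10), VARS1 (-0.93, adjusted p = 9.34e-15; difference 1.33), HMGA1 (-0.77, adjusted p = 2.24e-11; difference 1.17) and TXNRD1 (-0.74, adjusted p = 2.94e-12; difference 1.24) fell there. SHMT2 rose in both (0.58, adjusted p = 4.59e-07 in DMSO). The list median of ribosome biogenesis was -0.56 in DMSO and that of antigen presentation 0.42, opposite in sign to those under Ibr + AS.

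The courses of the single inhibitors were compared in the same way, with 5 libraries for Ibr, 2 of them at 72 h. The change over time differed from that under Ibr for 92 genes (0.493%) and from that under AS for 326 (1.75%). The first count was 131 with all 36 libraries and 182 without the 24 h Ibr + AS library of passage p121. PLXNB2 had a log2 FC of -0.87 in Ibr and -0.05 in AS, TMEM71 -0.98 and -0.19, and MTSS1 0.27 and 0.45.

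Markers of cell types were measured because bulk RNA cannot separate fewer cells of a type from less RNA per cell. The summed level of 8 B-lineage and MHC class II markers was 5628 to 6215 CPM at 24 h and 3274 to 4748 CPM at 72 h, all 8 had reads, and 5 of the 8 fell. These are TNFRSF13C and the class II genes named above, whereas NFATC1, TCF4 and MALT1 did not pass. DLA-DRA alone made up most of the sum at both times. Of 5 myeloid markers LYZ, which encodes lysozyme, was at 316, 285 and 211 CPM at 24 h and 136, 165 and 172 CPM at 72 h (log2 FC -0.78, SE 0.12, adjusted p = 1.91e-05) and TREML2 fell too (-0.68, adjusted p = 0.000877), with sums of 418 to 539.7 CPM and 354 to 417 CPM. The other 3 myeloid markers, TREM2, CSF2RB and NCF4, did not pass the adjusted p limit, and the median log2 FC of the 5 was -0.01. Of 6 T and NK markers, IFNG, IL4 and IL13 had no read in the 6 libraries, IL5 fell, and the sum was 0.959 to 1.40 CPM at 24 h and 0.313 to 1.02 CPM at 72 h. Of 7 melanocyte, epithelial and muscle markers, SOX10 and LRRC10 had no read, and the sum was 16.6 to 23.5 CPM and 20.8 to 27.1 CPM. The part of cell composition in the results was not tested.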

How the data were processed

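The authors mapped single-end reads to CanFam3.1 with STAR 2.7.5a and deposited raw counts per Ensembl gene for 36 libraries, and the strand column kept is not stated, so overlapping genes cannot be separated with certainty. The 30424 genes were filtered to the 18670 with at least 2 reads over 35 libraries. Ibr 72 h replicate 3 was left out, as in the study. With R 4.3.3 and edgeR 4.0.16, TMM factors, passage and 12 groups of treatment and time were fitted (estimateDisp, glmQLFit robust, glmQLFTest), with Benjamini-Hochberg adjustment over all genes tested. CPM and log2 CPM (prior count 1) were not used in the tests of genes. They served for levels, group overlap, the 48 h description, and distances and correlations between libraries. The 1 CPM and same-direction conditions on genes also rested on them. SE is the absolute log2 FC divided by the root of F.

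Replicate numbers are passages per the labels. One label of DMSO 24 h replicate 3 gives passage p126 and another p128, and p128 was used. Deviations from the group means had a median r of 0.0887 between groups within a passage (187 pairs) and -0.0385 across passages (374 pairs). For Ibr + AS at 24 h and 72 h the r was -0.00896, 0.468 and -0.268 for passages p121, p126 and p128. No libraries of a fitted group were alike within sampling noise (chi-square per degree of freedom 1.87 or more, and 4.47 or more for Ibr + AS). The value was 8.02 to 26.9 for Ibr + AS at 24 h and 14.5 to 22.5 at 72 h. For DMSO at 24 h it was 1.87 to 4.15, and for Ibr at 48 h 13 to 23.7. A spread shared over all 12 groups can thus be smaller than that of the 6 libraries compared here, and p-values may be too low. Symbols came as identifier pairs from the rows held here of the study's tables of all tests and of co-expression modules.

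Named genes were, first, up to 12 DEGs per direction with a symbol, at least 1 CPM and the same direction in each passage. To these were added called members of the lists with the 2 most abundant others, BCL2, MYB, MYC, DSE, NHSL1 and PIK3R1, the 5 largest differences from DMSO per direction, and 4 identifiers. Further list members past the adjusted p limit were named after their values were seen, and some are not reported here. The members and lists were chosen with earlier results of these data known. Alternatives were RLE factors, DESeq2 1.42.0, other filters, other sets of libraries, glmTreat, no passage term and sequencing run as a term.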

Additional observations from a re-analysis of the deposited data

Results flagged for a closer look

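Differences between treatments in the change from 24 h to 72 h were picked out by the test of the difference itself, in edgeR's quasi-likelihood fit. They numbered 1466 genes for Ibr + AS against DMSO, 92 against Ibr and 326 against AS.

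Against DMSO, the log2 change under Ibr + AS was lower for IL17REL (-2.98), IL5 (-2.93), A4GALT (-2.89), PLXNB2 (-2.66), MYO1A (-2.53), P4HA2 (-2.51), TMEM71 (-2.46) and MTSS1 (-2.33). The same held for the immediate early genes TRIB1 (-2.29), IER3 (-1.63), NAB2 (-1.60) and MYC (-1.40), which rose in DMSO, and of which MYC alone was called lower under Ibr + AS. HIVEP2 (-2.09), ALPK2 (-1.51), PLA2G6 (-1.5), AGPAT4 (-1.48), CDKN2B (-1.42), MYB (-1.14) and LYZ (-1.0) also differed, as did the MHC class II genes DLA-DRA (-1.37), DLA-DOA (-1.25) and DLA-DQA1 (-1.03). The identifiers ENSCAFG00000018146 (-8.73, few reads in DMSO) and ENSCAFG00000024573 (-5.66) had the lowest values given here.

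The change was higher under Ibr + AS for SAPCD1 (1.99), TRAM2 (1.66), SRSF6 (1.54), PLXNA1 (1.53) and CNKSR3 (1.48). It was also higher for VARS1 (1.33), TXNRD1 (1.24), HMGA1 (1.17) and DAPK1 (1.02), for the chaperones HSPA9 (1.10) and HSPA4 (1.04), and for the ribosome biogenesis genes RBM28 (1.21), POP1 (1.2) and PWP1 (1.08). ENSCAFG00000010192 (2.79) and ENSCAFG00000014130 (2.57) had the highest values given here.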

How the results depend on the processing

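With 3 cultures per time, many calls rest on the spread shared with other groups. Fitted on the 6 Ibr + AS libraries alone, 156 DEGs were called, 16 higher and 140 lower, and 142 and 366 genes passed the adjusted p limit at any log2 FC. On the 9 Ibr + AS libraries the last counts were 277 and 504, and 15 DEGs were called between 24 h and 48 h. Tested against a log2 FC of 1 rather than 0 (glmTreat), 18 DEGs remained, 1 higher and 17 lower, all 18 among the 283. The same test gave 0 at 48 h against 24 h and 0 at 72 h against 48 h, with 0.434% and 0.686% of genes at an unadjusted p under 0.05, where edgeR's usual test called 26 and 36. It gave 385, 10 and 27 for the differences from DMSO, Ibr and AS. DESeq2 called 221 DEGs, and 21 at 72 h against 48 h. Scaling by library size alone gave 1257 genes higher at any log2 FC. The causes of these shifts were not tested.

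Without the passage as replicate block, 271 DEGs were called, 267 of them shared with the 283, and BCL2 was no longer called (adjusted p = 0.0632). Leaving out a passage or 1 of the 3 libraries no nearer to their own group gave 167 to 365 DEGs, 32 to 74 higher and 132 to 293 lower, with the totals of 167 and 132 without the 72 h library of passage p121 (148 of its 167 shared with the 283). The ranges were 30 to 75 for 48 h against 24 h (57 without passage p121), 1 (without the 72 h library of passage p121) to 109 for 72 h against 48 h (109 without passage p128), 1221 to 1596 for the difference from DMSO, 94 to 182 from Ibr (152 without passage p121, 158 without passage p128) and 273 to 420 from AS. At any log2 FC, 350 to 1000 genes were higher (471 without passage p121) and 531 to 1113 lower, both lowest without the 72 h library of passage p121. Leaving out single libraries was chosen after the data were seen. No called log2 FC of a named gene changed sign under these alternatives.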

Other observations

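Some genes outside the lists had sizeable changes below 2-fold, and they were chosen after their values were seen. PACSIN1, an adaptor of endocytosis, was at 29.4, 37.3 and 45.8 CPM at 24 h and 81.8, 61.6 and 64.2 CPM at 72 h under Ibr + AS (log2 FC 0.88, SE 0.11, adjusted p = 4.15e-09), and its log2 FC in DMSO was 0.51. SYNJ2, a phosphoinositide phosphatase of the same process, was at 5.11, 6.06 and 7.43 CPM at 24 h and 11.3, 13.3 and 9.32 CPM at 72 h (log2 FC 0.85, SE 0.215, adjusted p = 0.0081), with 0.05 in DMSO. In both genes the groups did not overlap.

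SUN2, which ties the nuclear envelope to the cytoskeleton, was at 428, 379 and 382 CPM at 24 h and 223, 237 and 248 CPM at 72 h (log2 FC -0.75, SE 0.0878, adjusted p = 6.07e-11), with 0.16 in DMSO. STRIP2 was at 10.2, 11.7 and 12.6 CPM at 24 h and 6.02, 5.66 and 5.78 CPM at 72 h (log2 FC -0.99, SE 0.163, adjusted p = 1.88e-06), with 0.52 in DMSO. TAGAP, a GTPase-activating protein of lymphocytes, was at 33.3, 65.1 and 53.2 CPM at 24 h and 20, 27 and 34.9 CPM at 72 h (log2 FC -0.89, SE 0.19, adjusted p = 0.00292), with overlapping groups and 0.08 in DMSO.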
